A study of Mus musculus with 12 samples.

Results

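The 40 large clones described here were CD4 T cell clonotypes found in 10 or more cells of the pancreatic islets of NOD mice, and they were set against 404 small expanded clones of 2 to 4 cells from the same libraries. T cells bearing a receptor were sorted alive from the islets of 12-week-old pre-diabetic NOD females, a strain that develops autoimmune diabetes spontaneously, in 4 biological replicates that share sex, age and disease stage and carry no treatment or engineered allele. Each replicate gave an mRNA, an antibody and a receptor library of the same barcoded cells, with 1 mouse or several behind each replicate not stated in the labels. The p-values below therefore measure the spread between these 4 samples, and both clone classes come from every sample.

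The CD4 conventional cells were barcodes with a CD4 antibody count of at least 40, no UMI (a tagged, once-counted mRNA molecule) of Cd8a, Cd8b1 or Foxp3, at least 500 gene UMIs and at most 8% mitochondrial UMIs. Of 27423 barcodes with 131498219 gene UMIs in all, 12184 met this rule, and every cell of the large and small clones held at least 1 CD3 UMI. A clonotype was the set of productive alpha (TRA) and beta (TRB) junction sequences of a barcode, for barcodes in which 1 TRB chain and no more than 2 TRA chains had been assembled. Such a receptor was read in 8241 cells, which fell into 6488 clonotypes. Of these, 5978 were seen in a single cell, 404 in 2 to 4 cells (981 cells), 66 in 5 to 9 cells (425 cells) and 40 in 10 or more (857 cells). The large clones numbered 9, 12, 7 and 12 in replicates 1 to 4, with 237, 194, 160 and 266 cells. The small clones numbered 112, 76, 100 and 116, with 257, 181, 255 and 288 cells. Just inside the limit for large clones lay 6 clones of 10 cells and 5 of 11, and just outside it 9 clones of 9 cells and 9 of 8. At the other limits, 47 clones of 4 cells were counted as small and 23 of 5 cells were not, and 278 clones of 2 cells were small against the 5978 single cells. Summed over cells, the large clones of a library held between 1219992 and 1834183 gene UMIs and the small clones between 1126252 and 1748027. No large receptor was found in a second library, although 757 barcodes, 30 of them in large clones, also occurred in another library.

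A clonotype is read as the progeny of 1 T cell, because the junctions of both receptor chains are built by random joining and are inherited by daughter cells. Islet-infiltrating CD4 cells of NOD mice include cells with features of follicular helper T cells, which help B cells through interleukin 21 and CD40 ligand and carry the inhibitory receptor PD-1, and T helper 1 cells, which make interferon gamma. Cells that have not met antigen, or that recirculate between blood and lymph nodes, keep the interleukin 7 receptor and the factor Klf2, which drives S1pr1, the receptor that lets T cells leave tissue for lymph.

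Large clones are named by replicate and by size rank within it, so that clone 1.1 is the largest of replicate 1. The junctions below are those of the largest clone of each replicate, of the large clones that share a chain or nearly so, and of the 3 clones that stood apart in state. They run 5′ to 3′ as read in these cells, and capitals mark the bases between the first and the last codon of the junction.
Clone 1.1 TRA (TRAV13-4-DV7, TRAJ39): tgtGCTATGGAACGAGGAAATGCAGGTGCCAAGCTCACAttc
Clone 2.6 TRA (TRAV13-4-DV7, TRAJ39): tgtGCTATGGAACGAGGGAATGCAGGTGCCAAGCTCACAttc
Clone 1.1 TRB (TRBV15, TRBJ2-7): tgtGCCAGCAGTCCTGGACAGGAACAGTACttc
Clone 2.6 TRB (TRBV15, TRBJ2-1): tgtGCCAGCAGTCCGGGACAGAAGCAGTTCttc
Clone 2.1 TRA (TRAV13-4-DV7, TRAJ49): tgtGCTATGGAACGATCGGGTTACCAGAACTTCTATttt
Clone 4.4 TRA (TRAV13-4-DV7, TRAJ49): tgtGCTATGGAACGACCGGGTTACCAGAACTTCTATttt
Clone 2.1 TRB (TRBV15, TRBJ2-7): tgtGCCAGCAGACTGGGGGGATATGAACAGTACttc
Clone 4.4 TRB (TRBV15, TRBJ2-1): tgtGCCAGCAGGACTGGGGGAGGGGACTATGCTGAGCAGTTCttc
Clone 1.6 TRA (TRAV10D, TRAJ43): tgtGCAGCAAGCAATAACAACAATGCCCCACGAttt
Clone 2.8 TRA (TRAV10D, TRAJ43): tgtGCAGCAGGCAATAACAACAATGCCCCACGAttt
Clone 1.5 TRA (TRAV10D, TRAJ31): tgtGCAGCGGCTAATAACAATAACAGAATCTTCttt
Clones 1.5 and 1.6 TRB (TRBV19, TRBJ2-3): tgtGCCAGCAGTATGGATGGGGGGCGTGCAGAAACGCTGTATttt
Clone 3.1 TRA (TRAV14D-1, TRAJ57): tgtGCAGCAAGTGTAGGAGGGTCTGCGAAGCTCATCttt
Clone 3.1 TRB (TRBV15, TRBJ2-7): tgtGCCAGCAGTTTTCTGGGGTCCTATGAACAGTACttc
Clone 4.1 TRA (TRAV10D, TRAJ44): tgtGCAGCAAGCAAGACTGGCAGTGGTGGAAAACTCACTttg
Clone 4.1 TRB (TRBV14, TRBJ1-6): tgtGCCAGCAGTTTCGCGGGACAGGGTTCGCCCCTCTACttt
Clone 2.9 TRA (TRAV9-1, TRAJ49): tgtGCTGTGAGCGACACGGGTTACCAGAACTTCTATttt
Clone 4.8 TRA (TRAV6N-7, TRAJ26): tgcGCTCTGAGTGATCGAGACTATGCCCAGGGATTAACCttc
Clone 4.12 TRA (TRAV13-1, TRAJ21): tgtGCTATTAATTACAACGTGCTTTACttc

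Counting positions from 1 at the first base of the junction, the alpha chain of clone 2.6 differs from that of clone 1.1 only by A18G, which leaves the encoded residues the same. Clones 2.1 and 4.4 differ by T16C in alpha, and clones 1.6 and 2.8 by A10G, each with 1 encoded residue changed. Clones 1.5 and 1.6, both of replicate 1, share their beta junction base for base and carry different alpha junctions. These similar chains were sought after the clones had been listed, and no test was made of them.

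Across the sums of gene UMIs, 432 of 9325 genes tested (4.63%) passed an adjusted p of 0.05 in edgeR's quasi-likelihood test with Benjamini-Hochberg adjustment, with the library as a block. Of them, 205 (2.2% of those tested) were higher and 227 (2.43%) lower in large clones. Il21, Pdcd1, Tigit and Ccr8 were among the genes called higher in large clones, and Il7r, Klf2 and S1pr1 among those called lower. Levels of single genes below are CPM (counts per 1000000 UMIs of the tested genes, scaled by TMM), in replicates 1 to 4 in that order. In such sums a gene active in more cells and a gene more active in each cell cannot be told apart. Cells of large clones also held more UMIs, with a median of 4930 ± 603 against 3994 ± 284 in small clones (SD, n = 4 libraries each).

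**Figure D1:**
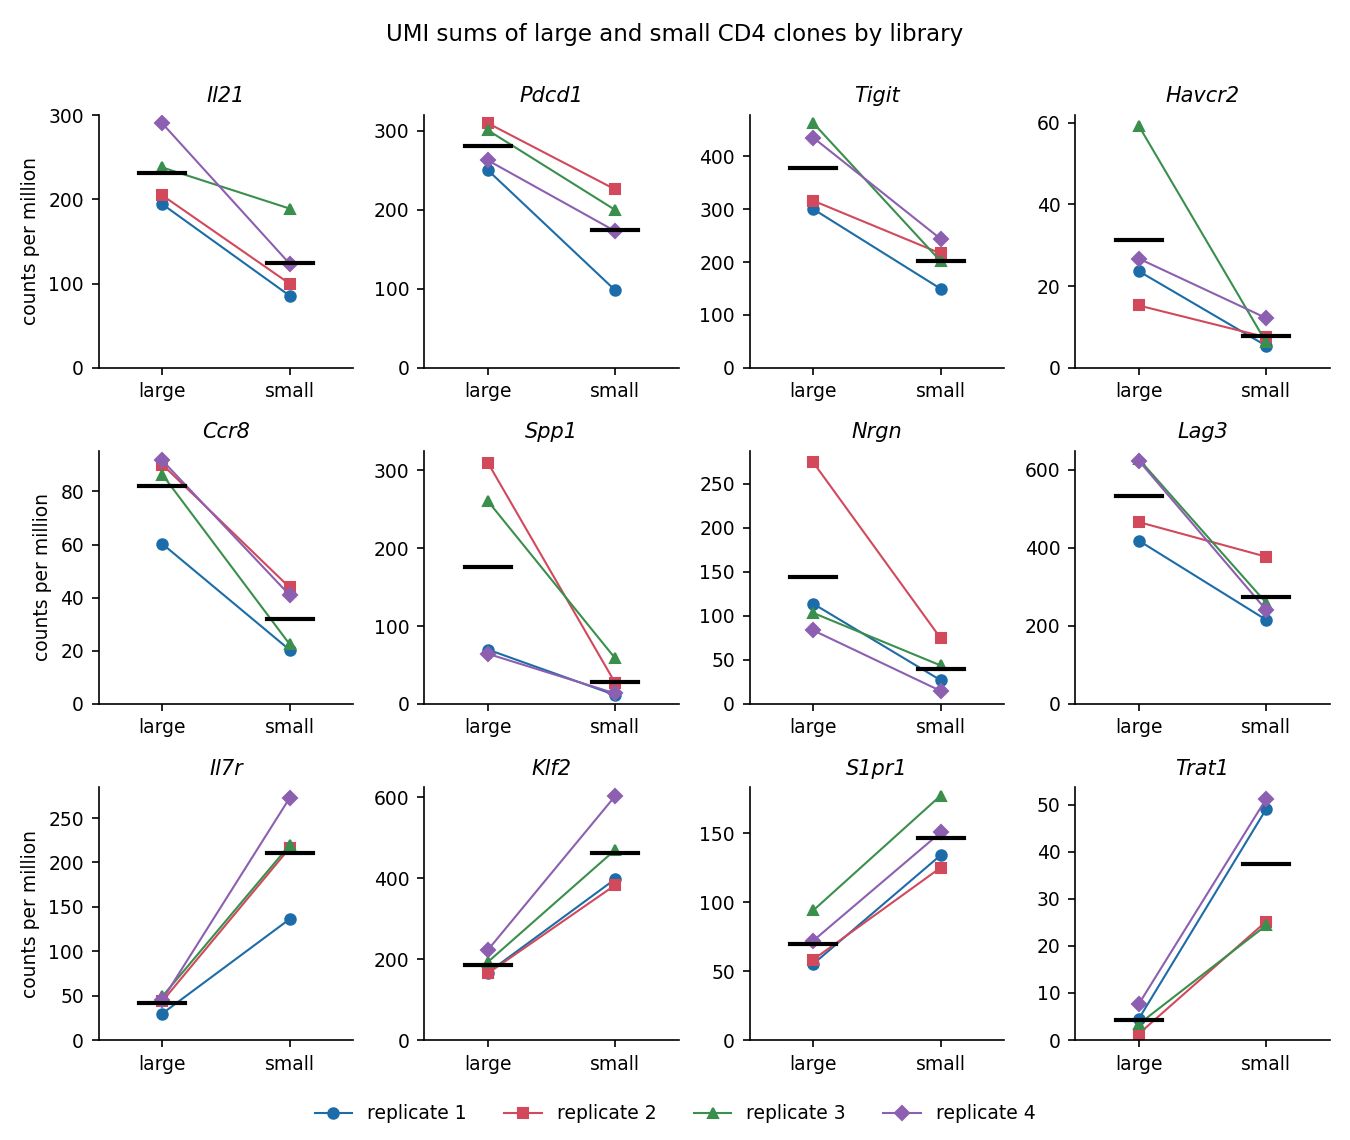
CPM (linear axis from 0) of 12 genes in the summed cells of large clones (left of each panel) and small clones (right), with a line joining the 2 sums of each of the 4 libraries and a black bar at the mean of each class. Il7r lay between 29.8 and 49.1 CPM in large clones and between 136 and 273 CPM in small clones, while Ccr8, Tigit and Il21 were higher in large clones of every library.

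Among 14 tested genes of the follicular helper list, 8 rose in large clones and 6 did not pass, and the list's median log2 difference was 0.43, against 0.00 over all genes tested. Il21, the cytokine that drives B cell help, stood at 194, 205, 238 and 290.2 CPM in large clones, against 85.5, 99.8, 189 and 124 CPM in small clones. Pdcd1, which encodes PD-1, stood at 250.0, 309, 300.5 and 262 CPM in large clones, against 98, 226, 200 and 173 CPM in small clones. For both genes every large-clone sum lay above every small-clone sum. The log2 difference was 0.94 ± 0.15 (SE; adjusted p 0.0106) for Il21 and 0.74 ± 0.14 (adjusted p 0.0223) for Pdcd1. The SE of a log2 difference, here and below, is its size divided by the square root of edgeR's F statistic, and not a separate estimate. Each call was lost in some fits that left out 1 library, which use fewer samples. For Il21 the adjusted p was 0.0588 without replicate 1 and 0.0686 without replicate 2, and for Pdcd1 0.0936 without replicate 3 and 0.125 without replicate 4.

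Other helper genes kept their call whichever library was left out. Tnfsf8, which encodes CD30 ligand, rose by 0.78 (log2; adjusted p 2.88e-05), Cd200, an inhibitory ligand of follicular cells, by 0.69 (adjusted p 1.43e-04) and Tox2, a factor of the follicular programme, by 0.61 (adjusted p 9.38e-04). The defining follicular genes were less clear. Cxcr5, the receptor that guides T cells into B cell follicles, differed by 0.32 (adjusted p 0.147), and Bcl6, the follicular lineage factor, by 0.29 (adjusted p 0.694).

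Of 18 tested genes of the inhibitory receptor and exhaustion list, 6 rose, with a median log2 difference of 0.39. Tigit, an inhibitory receptor, stood at 300.1, 316, 463 and 435 CPM in large clones, against 149, 216, 202 and 244 CPM in small clones. The groups did not overlap, and the difference of 0.90 ± 0.10 (adjusted p 9.51e-05) kept its call without any one library. Havcr2, the gene of the receptor TIM-3, stood at 23.6, 15.2, 59.3 and 26.7 CPM in large clones, against 5.38, 7.46, 6.24 and 12.2 CPM in small clones. It rose by 1.94 ± 0.34 (adjusted p 0.0085), and the adjusted p was 0.0608 without replicate 1. Tox, a nuclear factor of chronically stimulated T cells, rose by 0.47 (adjusted p 0.00362). Lag3, another inhibitory receptor, stood at 419, 466, 628 and 624 CPM in large clones, against 216, 378, 260 and 241 CPM in small clones. The groups did not overlap, yet the difference of 0.98 had an adjusted p of 0.119, replicate 2 showing the smallest gap. Without replicate 2 the same difference was 1.20 with an adjusted p of 9.78e-06.

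The gene lists also covered tissue residence, where 4 of 11 tested genes rose and 1 fell. Ccr8, a chemokine receptor of T cells in peripheral tissue, stood at 60.2, 90.1, 86.3 and 91.7 CPM in large clones, against 20.3, 43.8, 22.5 and 41.0 CPM in small clones. It rose by 1.40 ± 0.15 (adjusted p 6.28e-05), and the lowest large-clone sum lay above the highest small-clone sum. Ahr, a ligand-activated factor of barrier lymphocytes, rose by 1.15 (adjusted p 0.00426). Itgae, the integrin chain that binds E-cadherin, fell by 1.59 (adjusted p 0.00507), a call that was lost without replicate 2 (adjusted p 0.0695) and without replicate 4 (adjusted p 0.0713). Of 19 tested cytokine and chemokine genes, 4 rose, among them Il10, an inhibitory cytokine, by 0.99 (adjusted p 0.0107). That call was lost without replicate 3 (adjusted p 0.0936) and without replicate 4 (adjusted p 0.0904). Il10 was above the small-clone sum of the same library in 15 of the 40 large clones, below it in 25 and at 0 in 22.

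The greatest rise among genes with a mean of at least 20 CPM was that of Spp1, which encodes the secreted protein osteopontin. It stood at 69.8, 310.1, 261 and 64.4 CPM in large clones, against 11.4, 27.0, 58.6 and 13.4 CPM in small clones, and rose by 2.61 ± 0.23 (adjusted p 0.00186). A few clones carried it: Spp1 was at 0 in 17 of the 40 large clones and reached 1645 CPM in clone 2.5 and 1143 CPM in clone 4.6. When each large clone was thinned to 10 cells the difference was 2.25 with an adjusted p of 0.555, and without the largest clone of each library it was 2.32 with an adjusted p of 0.151. Nrgn, which encodes the calmodulin-binding protein neurogranin, rose by 1.87 (adjusted p 1.84e-04) and gave adjusted p values of 0.511 and 0.209 in those same settings. The genes that followed by size were Stfa3, Tmem158, Gsto1, Ccr8, Pdzrn3, Shtn1, Fam20a, Wisp1, 1700019D03Rik and Socs2, with log2 differences between 2.47 and 1.21. Stfa3, a cysteine protease inhibitor (2.47; adjusted p 2.88e-05), belongs to a family of near-identical copies whose UMIs the counting could split. It was above the small-clone sum of the same library in 16 of the 40 large clones, below it in 24 and at 0 in 22. Socs2, an inhibitor of cytokine signalling, rose by 1.21 (adjusted p 3.28e-04).

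Genes of naive and recirculating cells went the other way: 5 of 13 tested fell in large clones, with a list median of -1.30. Il7r, the interleukin 7 receptor chain that supports T cell survival, stood at 29.8, 43.7, 49.1 and 45.3 CPM in large clones, against 136, 216, 220 and 273 CPM in small clones. Klf2 stood at 167, 165, 193 and 223 CPM in large clones, against 398, 383, 470 and 603 CPM in small clones. For both, no sum of the large clones reached the lowest sum of the small ones. S1pr1 stood at 55.2, 58.3, 94.0 and 72.0 CPM in large clones, against 134, 125, 177 and 150.4 CPM in small clones. Il7r fell by 2.32 ± 0.11 on the log2 scale (adjusted p 7.44e-09), Klf2 by 1.30 ± 0.08 (adjusted p 1.37e-07) and S1pr1 by 1.08 ± 0.10 (adjusted p 1.01e-05). Klf3, a related Krüppel-like factor, fell by 1.33. These 4 calls stood whichever library was left out. Tcf7, a factor of naive and stem-like T cells, differed by -0.12 (adjusted p 0.632) and Slamf6, a receptor of stem-like cells, by -0.16, so that the 4 of 18 tested stem and memory genes that fell were Il7r, Klf2, S1pr1 and Cd27.

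The 12 greatest falls were led by Trat1, an adaptor of the T cell receptor complex. It stood at 4.50, 1.33, 3.39 and 7.64 CPM in large clones, against 49, 25.2, 24.3 and 51.2 CPM in small clones. Ctla2a, a cysteine protease inhibitor of T cells, stood at 7.88, 4.64, 7.62 and 12.6 CPM in large clones, against 93.2, 32.6, 63.6 and 64.6 CPM in small clones. The large-clone sums rest on few UMIs, 2 to 14 for Trat1 and 7 to 23 for Ctla2a. Both genes were apart in every library, with log2 differences of -3.14 ± 0.25 (adjusted p 3.16e-06) and -2.93 ± 0.21 (adjusted p 6.84e-07). Ctla2a was below the small-clone level of the same library in all 40 large clones, and Trat1 in 37 of them. After Il7r came Ifi208, Scml4, Dtx1, Gm2682, Ly6a, Sidt1, Pde3b, Txk and Slfn8, between -2.20 and -1.45. Dtx1, a Notch target that rises in anergic T cells, fell by 1.80 (adjusted p 6.84e-07). Ctla2a, Ly6a, Ifi208 and Slfn8 belong to families with close copies.

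Of 18 tested interferon response genes, 9 fell, with a median of -0.51, and of 10 integrin genes 4 fell and 1 rose. DESeq2 called 3 of the interferon genes lower. Summed, that list overlapped between classes, at 2301 to 3121 CPM of all gene UMIs in large clones and 2361 to 3595 in small clones. Ifit1, an antiviral gene induced by type I interferon, fell by 2.55 (adjusted p 0.00199) and Irf7, a factor that amplifies that response, by 1.01 (adjusted p 0.00389). Ifit1 rested on few UMIs: 11, 1, 0 and 7 in large clones and 55, 4, 24 and 23 in small clones of replicates 1 to 4. Ifngr1, a chain of the interferon gamma receptor, fell by 1.26 (adjusted p 7.11e-06). Among integrins, Itgb7, the partner chain of gut homing receptors, fell by 0.73 (adjusted p 1.10e-04) and Itga6 by 0.87 (adjusted p 9.60e-04), while Itgal, which encodes CD11a, differed by -0.02.

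The T helper 1 list showed 1 call among 14 tested genes. Ccr2, a receptor that draws cells to inflamed tissue, fell by 0.98 (adjusted p 0.00613), and its adjusted p was 0.0868 without replicate 4. No T helper 1 gene was called higher, 1 was higher and 5 lower at an unadjusted p of 0.05, and DESeq2 called none higher and 1 lower. Ccl5, a chemokine of effector T cells, stood at 66.4, 77.5, 348 and 634 CPM in large clones, against 690.2, 635, 979 and 1199 CPM in small clones. The highest sum of large clones lay just below the lowest sum of small clones. Its difference of -2.11 had an adjusted p of 0.285 in edgeR and of 0.00842 in DESeq2. Ifng, the interferon gamma gene, was higher by 0.59 (adjusted p 0.0548), Cxcr6, a receptor of tissue effector cells, by 0.55 (adjusted p 0.66), and Tbx21, the T helper 1 lineage factor, lower by 0.28 (adjusted p 0.237). Of 10 cytotoxic genes edgeR called none, with 1 higher and 1 lower at an unadjusted p of 0.05 and 1 lower in DESeq2.

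**Figure D2:**
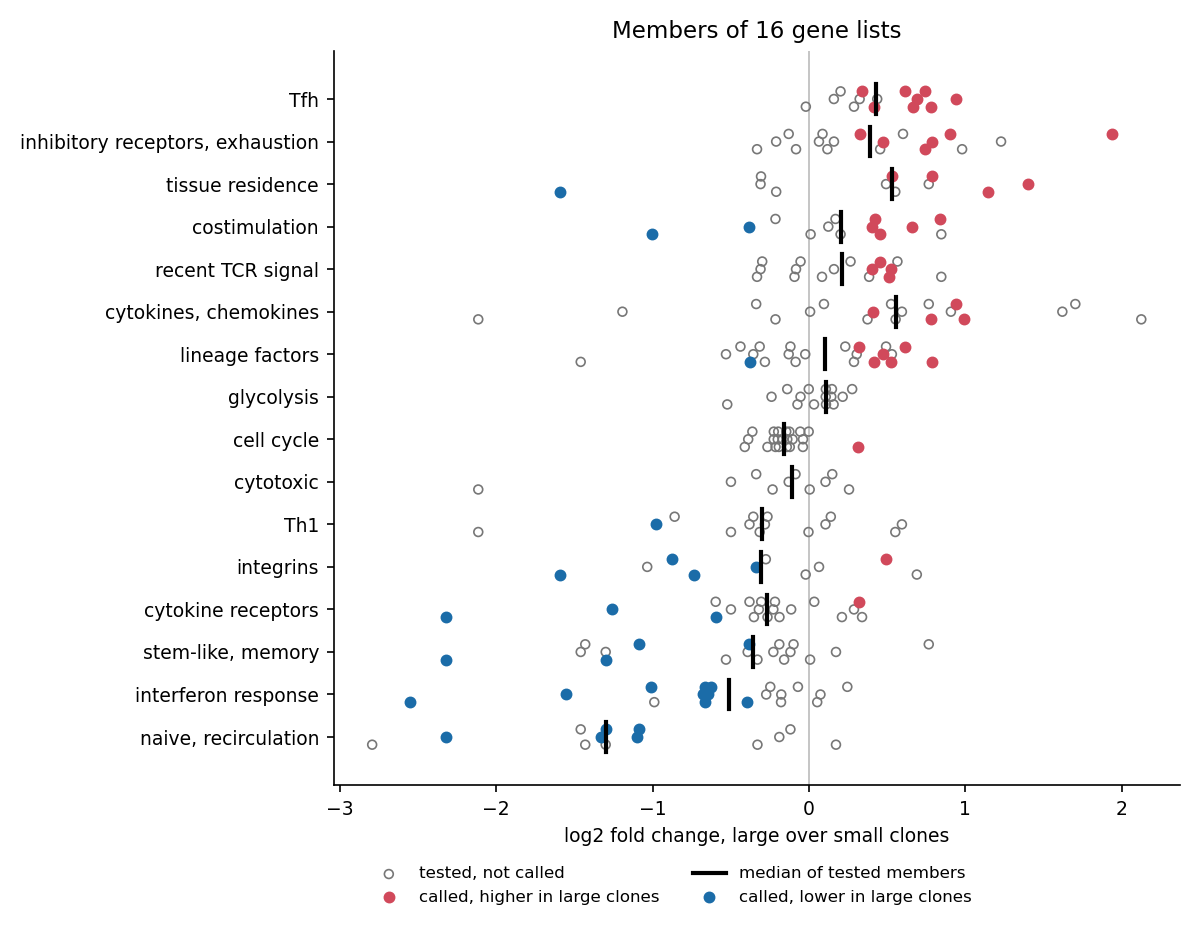
Log2 fold change, large over small clones, of the tested genes of 16 lists, 1 point a gene, with filled points for genes past an adjusted p of 0.05 (red higher, blue lower in large clones) and a bar at the list median. The naive and recirculating list has its median at -1.30 and the follicular helper list at 0.43, against 0.00 for all genes tested.

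Few cell division genes passed the test. Of 22 tested cycling genes 1 was called, Mcm6, a helicase subunit, at 0.31 (adjusted p 0.0485), and 21 of the 22 had a difference below 0. The share of cells with at least 2 UMIs of these genes was nonetheless 72.9% ± 5.15 in large clones and 61.4% ± 3.35 in small clones (SD, n = 4; higher in 4 of 4 libraries, two-sided exact permutation p 0.125, the smallest that 4 pairs allow). After each cell was thinned to 1500 UMIs, leaving out 14 shallower cells of large clones and 17 of small clones, the shares were 34.8% in large clones and 28.7% in small clones. Among cells with a CD11a antibody count of 200 or more, a setting chosen after seeing the data, the cycling shares were 78.0, 73.1, 77.4 and 76.4% in large clones, against 81.7, 80.4, 75.5 and 67.2% in small clones, a mean difference of 0.0452 percentage points with a sign that differed between libraries. Mki67, a proliferation marker, differed by -0.41 (adjusted p 0.811).

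B cell and myeloid transcripts were present in both classes in overlapping ranges. The 10 B cell markers summed to between 1442 and 4807 CPM of all gene UMIs in large clones and between 1793 and 4473 in small clones, and the 10 myeloid markers to between 236 and 989 in large clones and between 175 and 1472 in small clones. edgeR and DESeq2 called 0 of the 10 tested B cell, 8 myeloid and 5 acinar markers, and 0 of them passed an unadjusted p of 0.05. Endocrine markers stayed at or below 34.6 CPM and markers of NK and CD8 cells at or below 8.20 CPM in every sum, where Cd8a and Cd8b1, 2 of the 6 markers of that list, are at 0 by the rule that chose the cells. The 7 stroma and endothelium markers summed to between 41.4 and 50.8 CPM in large clones and between 52.4 and 66.4 CPM in small clones, which did not overlap. The 1 of them tested, Pecam1, an adhesion molecule that T cells also carry, fell in large clones (log2 fold change -0.48, adjusted p 0.0386). The part of free RNA or of mixed droplets in the gene differences was not tested beyond leaving out the 5% of cells with most B cell, acinar and endocrine markers. Myeloid, NK and CD8, and stroma and endothelium markers were not used to leave cells out.

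Of the antibodies only CD4 was used to choose the cells, so its count is given as a description and not as a result. The CD4 median was 440 ± 74.2 counts in large clones and 283 ± 63.4 in small clones (SD, n = 4 libraries). Antibody counts were not scaled for the UMIs of a cell, and the part of depth in them was not tested. CD11a, an integrin chain that rises after activation, had a median log2 count of 8.67 ± 0.16 in large clones and 7.85 ± 0.19 in small clones (SD, n = 4 libraries). The median was higher in large clones in 4 of 4 libraries (two-sided exact permutation p 0.125, the smallest possible).

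Along the full range of clone sizes, the 4 bins being single cells, 2 to 4, 5 to 9 and 10 or more cells, several genes changed in steps. In CPM of all gene UMIs averaged over libraries, Il7r stood at 378, 202, 100.5 and 41.2 and fell at every step in all 4 libraries, as did Dtx1 at 163, 105, 72.4 and 30.9. Ccr8 stood at 10.1, 30.5, 42.3 and 80.5, Nrgn at 10.9, 38.2, 67.3 and 141, and 1700019D03Rik at 27.6, 129, 214 and 305, and all rose at every step in all 4 libraries. Lag3, at 55.9, 262, 435 and 524, did so in 3 of 4. Other genes turned within the range: Ctla2a stood at 30.8, 60.8, 17.3 and 8.04, Ccl5 at 285, 838, 576 and 278, and Il21 had means of 18.4, 119, 224 and 228. Between the last 2 bins the libraries parted for Il21, which stood at 190, 199.6, 230 and 290 CPM in clones of 10 or more cells of replicates 1 to 4, against 286, 259, 159 and 193 CPM in clones of 5 to 9 cells. CD11a medians were 90.8, 232, 344 and 407 counts in the same 4 bins. The bins at the ends hold unequal numbers of clones, and the 5 to 9 bin of replicate 1 has 6 clones with 40 cells.

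**Figure D3:**
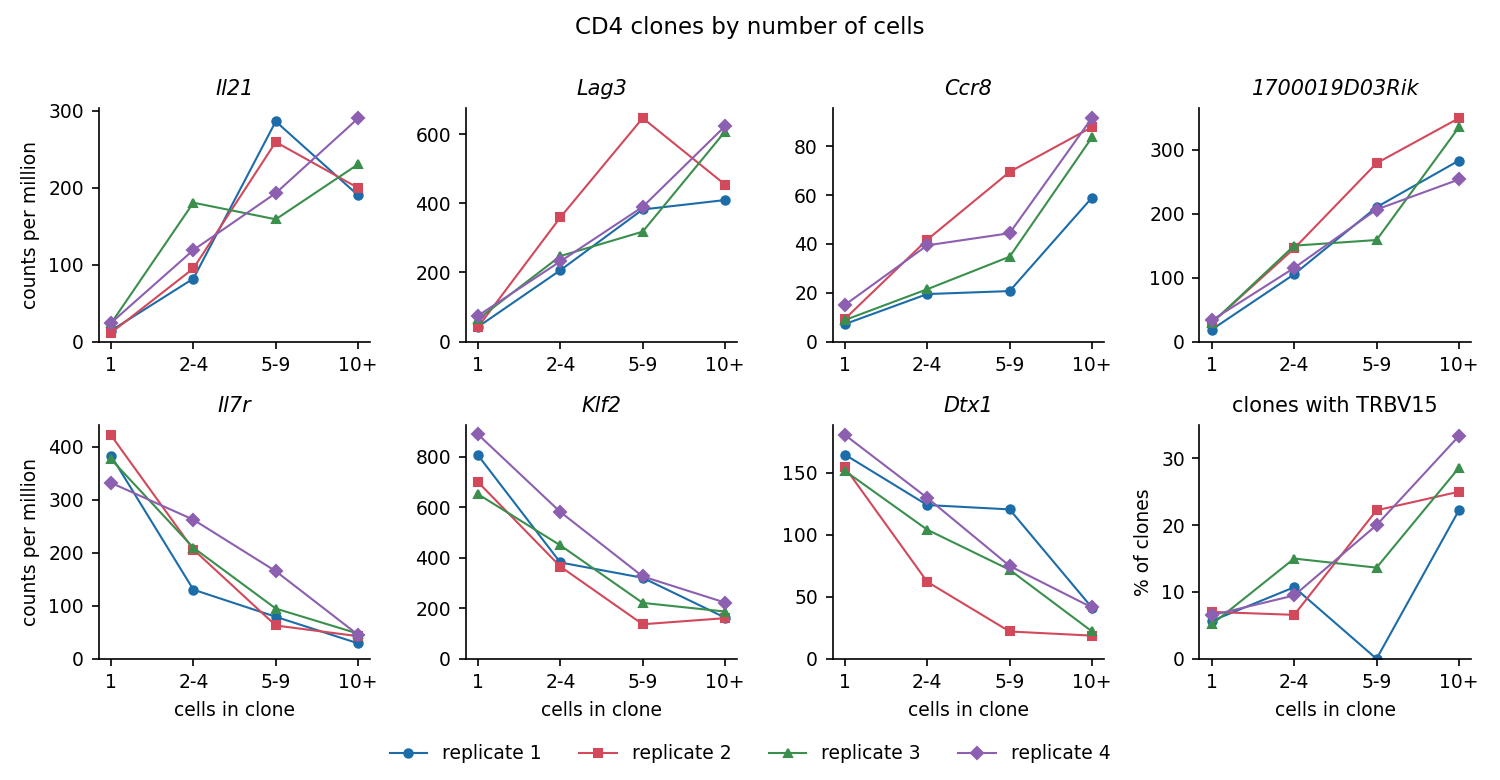
CPM of all gene UMIs (linear axis from 0) of 7 genes, and the share of clones with TRBV15 (%), by clone size (1, 2 to 4, 5 to 9, and 10 or more cells), 1 line a library. Averaged over libraries, Il7r stands at 41.2 CPM and Ccr8 at 80.5 CPM at 10 or more cells, and Il21 is lower at 10 or more cells than at 5 to 9 in replicates 1 and 2 and higher in replicates 3 and 4.

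To ask whether single large clones hold to one state, each cell of an expanded clone was given the state with the highest of 3 list scores, helper, T helper 1, or naive and recirculating, each scaled over the expanded cells of its library. A state is thus a range of scores and not a cell type, and it uses the same lists as the gene results above. The helper state took 58.1% ± 1.53 of the cells in large clones and 27.9% ± 3.25 in small clones (SD, n = 4). The T helper 1 state took 23.9% ± 5.62 of the cells in large clones and 24.9% ± 2.97 in small clones. The naive and recirculating state took 18.03% ± 7.06 in large clones and 47.3% ± 2.88 in small clones. The helper and naive shares differed the same way in 4 of 4 libraries (two-sided exact permutation p 0.125, the smallest possible), while the T helper 1 share was higher in large clones in 2 of 4 (p 0.875, exact permutation test). Thinned to 1500 UMIs a cell, the helper shares were 52.6% in large and 24.1% in small clones. Among cells with a CD11a count of 200 or more, with scores scaled over those cells, the helper shares were 38.5, 41.9, 50 and 56.4% in large clones, against 26.0, 28.3, 34.4 and 28.2% in small clones, and the naive shares 32.7, 35.6, 24.7 and 21.4% in large clones, against 45.8, 38.0, 43.6 and 46.7% in small clones. The 2 best scores lay within 0.25 of each other in 209 of 857 cells of large clones (24.4%) and in 180 of 981 cells of small clones (18.4%).

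**Figure D4:**
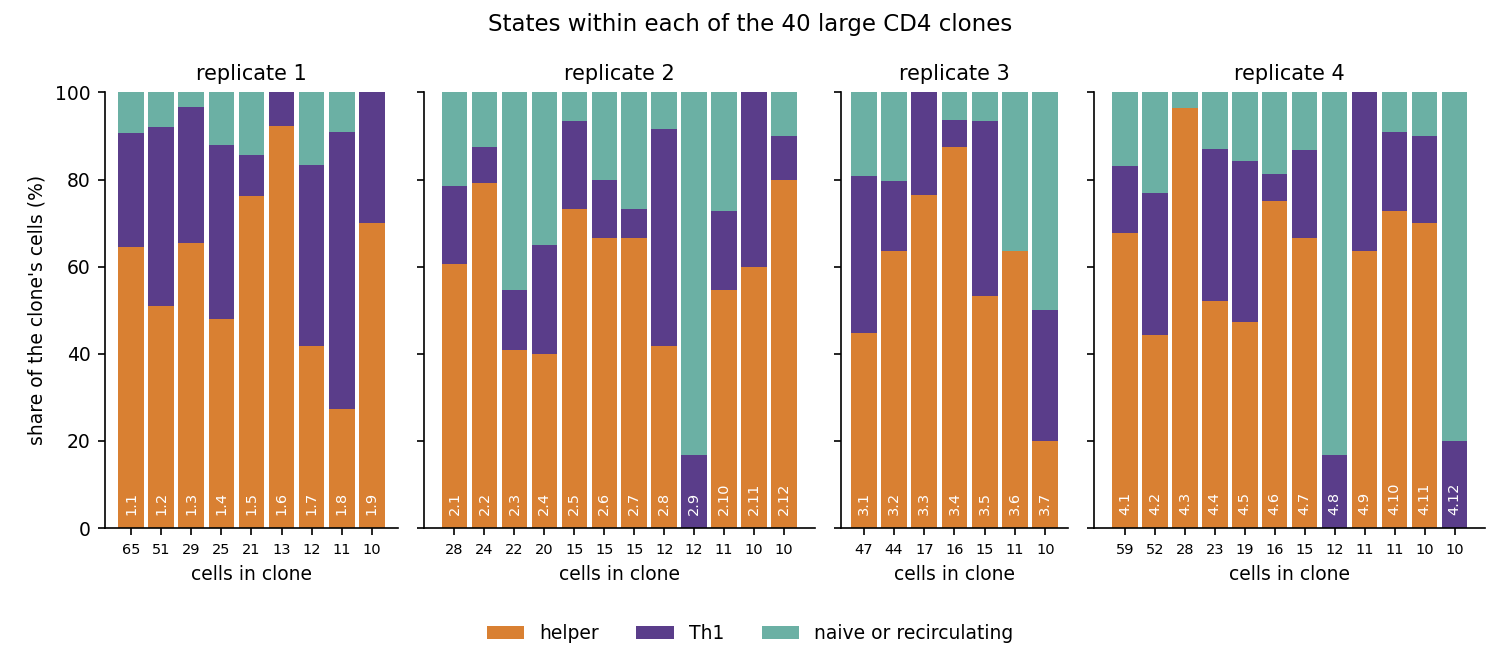
Share of cells (%) in the helper, T helper 1 and naive or recirculating states in each of the 40 large clones, grouped by replicate and ordered by clone size. The helper state alone is the commonest in 32 clones, and clones 2.9, 4.8 and 4.12 have no helper cell.

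By these assignments no large clone held to a single state. The part of counting noise in the scores of single cells was not tested, and such noise can place cells of 1 clone in different states. All 3 states were present in 30 of the 40 clones and 2 in the other 10. The commonest state was helper in 32 clones, naive in 5 and T helper 1 in 2, clone 1.7 had 5 helper and 5 T helper 1 cells of 12, and the commonest state took a median of 65.1% of a clone's cells, between 40% and 96.4%. It exceeded 75% in 10 clones and 90% in 2, namely clone 4.3 with 27 of 28 cells and clone 1.6 with 12 of 13 cells in the helper state. In 7 clones it stayed under 50%. The lower bound of the exact 95% binomial interval of the helper share exceeded 50% in 8 clones and that of the naive share in 2, so that in the other 30 clones the cell number does not fix a majority state.

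The largest clones were mixed by the same assignments. Clone 1.1 (65 cells) had 64.6% helper cells with an exact 95% interval of 51.8 to 76.1%, clone 4.1 (59 cells) 67.8%, clone 3.1 (47 cells) 44.7% and clone 2.1 (28 cells) 60.7%. Clone 1.2 (51 cells) had 51.0% helper and 41.2% T helper 1 cells, and clone 4.2 (52 cells) 44.2% and 32.7%. Clone 3.2 (44 cells) had 63.6%, clone 1.3 (29 cells) 65.5%, clone 2.2 (24 cells) 79.2% and clone 3.3 (17 cells) 76.5% helper cells. Clone 2.3 (22 cells) was split between 45.5% naive and 40.9% helper cells, with a median of 7740 UMIs a cell and a CD11a median of 388 counts. In CPM of all gene UMIs, Il7r stood at 36.6 and Klf2 at 233 in clone 2.3, against medians of 29.85 and 153 over the 40 large clones. Il21 stood at 242 and Mki67 at 617 in the same clone, against medians of 214 and 251. Within a library, the share of the variance of the helper score that lay between clones ranged from -2.3 to 32.6% among large clones and from 50.5 to 75.5% among small clones, where an estimate below 0 means no excess over the spread within clones. For the T helper 1 score it ranged from -1.16 to 8.39% among large clones and from 38.3 to 60.8% among small clones, and for the CD11a count from 1.11 to 23.3% among large clones and from 27.5 to 74.4% among small clones. For the helper score and CD11a the upper ends rest on the 3 clones without helper cells. Without them the share among large clones was at most 13.5% for the helper score and 9.85% for CD11a, and in replicate 4 the helper share was -0.095% in place of 32.6%. For the T helper 1 score the range was -1.16 to 8.39% without them too. The shares do not show that large clones were more mixed within. The SD of the helper score within clones was 0.429, 0.565, 0.571 and 0.576 in large clones, against 0.557, 0.726, 0.702 and 0.777 in small clones, and over all cells it was 0.425 to 0.687 in large clones and 1.1 to 1.26 in small clones. For the T helper 1 score the SD within clones was 0.827 to 0.904 in large clones and 0.714 to 0.826 in small clones. Small clones had 2 to 4 cells each and more naive cells, whose part in these differences was not tested.

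The 3 clones without any helper cell, 2.9, 4.8 and 4.12, had 12, 12 and 10 cells, of which 83.3, 83.3 and 80.0% were in the naive and recirculating state. They were picked out after their values were seen and are described without a test. Their CD11a medians of 110.5, 107 and 159 counts lay below those of the other 37 clones (209.5 to 506), and so did their median UMIs of 2277, 2576 and 2090 a cell (2952 or more in the others). Klf2 stood at 2751, 1714 and 2018 CPM of all gene UMIs in these clones, against at most 587 in the other 37. Il7r stood at 615, 923 and 576 CPM, against at most 373. Each was at 0 UMIs for Il21, Lag3 and Mki67. In CPM, their summed cells exceeded the other 37 clones most in Il7r (22.6-fold), Gm2682, Sidt1, Klf2 (13.5-fold), Socs3, S1pr1 (6.49-fold), Klf6, Rasa3, Ripor2, Dnajb1, Hspa1a and Txnip, among 323 genes with at least 30 UMIs in the 3 clones together. Genes thus entered through the clones in which they were high, and Il7r, Klf2 and S1pr1 belong to the list that defined the naive state, so the order is a description only. Dnajb1 and Hspa1a are heat shock genes that also rise when tissue is dissociated, and the part of handling was not tested. The whole comparison rests on 78778 UMIs in these 3 clones. Clone 3.7, with a CD11a median of 209.5 and Il7r at 373 CPM, lay nearest to them and had 50% naive cells.

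**Figure D5:**
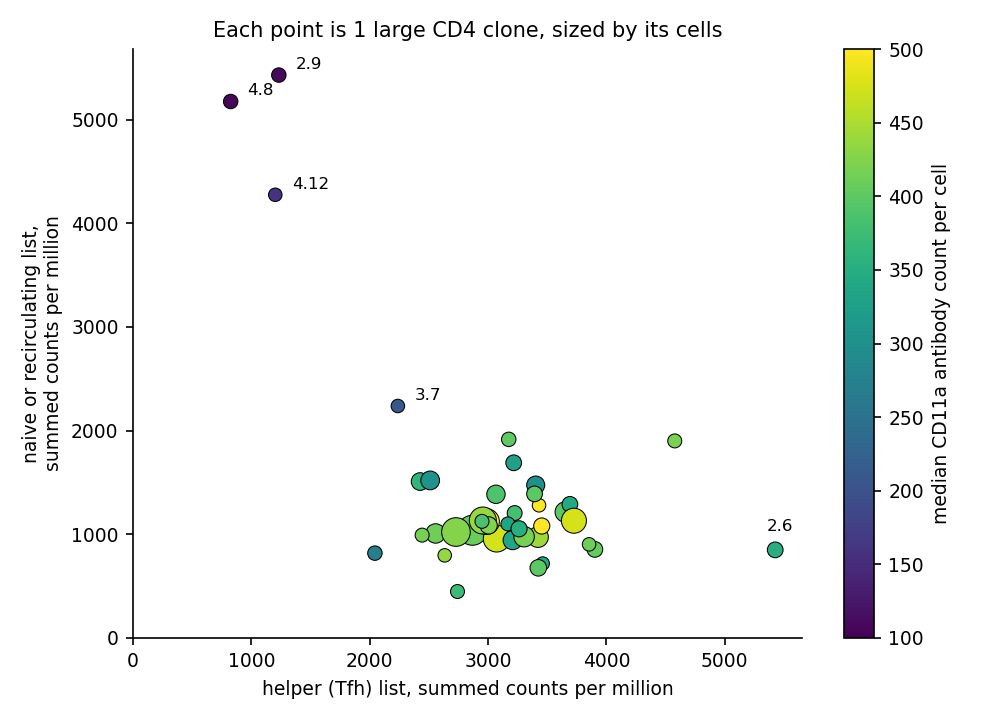
Each large clone (1 point, area by cell number, colour by median CD11a antibody count) by the summed level of the helper list (horizontal) and of the naive and recirculating list (vertical), both in CPM of all gene UMIs. Clones 2.9, 4.8 and 4.12 stand apart, with naive list levels of 4275 to 5430 CPM against at most 2237 CPM in the other 37, and helper list levels of 824 to 1231 CPM against at least 2043 CPM. Both lists also set the states by which these clones were picked out, so their place here is a description.

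The gene differences were also counted clone by clone. Compared with the summed small clones of the same library, S1pr1 was lower in 37 of 40 large clones, Il7r in 36 and Klf2 in 34. Cd82, a tetraspanin, was higher in 36, Cd200, Maf and Lag3 in 35, Tigit and Tnfsf8 in 34, Il21 and Pdcd1 in 31 and Ccr8 in 30. Ccl5 was lower in 38, was at 0 in 10, and reached 2779 CPM in clone 4.7 and 2452 CPM in clone 3.5. These levels came from few cells, 2 of 15 in clone 4.7 and 6 of 15 in clone 3.5. Havcr2 was higher in 21 and at 0 in 14 clones. These counts use the cells behind the gene test and are a description.

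Some genes stood high in single clones, often through few of their cells. By the ratio of observed to Poisson variance between the large clones of a library, the first 10 of 3507 genes were Cd74, Gm42418, Ccl5, Hspa1a, Penk, H2-Aa, Spp1, Malat1, Ccl4 and Cxcl13, against a median ratio of 1.43. The ratio leaves out the spread from cell to cell. Set against that spread, the share of the variance between clones was 11.2% for Ccl5, 8.15% for Hspa1a, 7.96% for Spp1 and 5.35% for Penk, but 0.695% for Cxcl13, 0.484% for Gm42418 and -1.23% for Ccl4, near or below the median of 0.765% over all these genes. Ccl5 had a ratio of 121, Penk, which encodes the opioid precursor proenkephalin, 101, and Spp1 83.6. The highest Penk level, 2548 CPM in clone 1.8, was 216 UMIs of 1 cell. Cxcl13, the chemokine that draws B cells and marks peripheral helper cells in human tissue, reached 1645 CPM in clone 3.1. Cd74 (ratio 230.3) and H2-Aa are major histocompatibility class II genes of B and myeloid cells, and the part of their RNA in these values was not tested.

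Both clones whose commonest state was T helper 1, 1.8 (11 cells) and 2.8 (12 cells), had mates of the same receptor that carried Foxp3 UMIs, 11 and 14 such cells, although Foxp3-positive cells themselves were left out. Foxp3 is the lineage factor of regulatory T cells. Clone 2.10 had 6 such mates. In all, 8 of 40 large clones (20%) and 22 of 404 small clones (5.45%) had at least 1 CD4 cell of the same receptor with a Foxp3 UMI. The classes differ in cells per clone, and the part of this in the shares was not tested. Clones 1.8 and 2.8 carried the highest levels of Ikzf2, the regulatory T cell factor Helios, at 684 and 693 CPM, with Il21 at 23.6 and 0 CPM and Ccl5 at 602 and 560 CPM. Ifng stood at 11.8 and 8.88 CPM in these clones, against a median of 128 over the 40 large clones. Tbx21 stood at 47.2 and 26.7 CPM, against a median of 49.1. Nkg7, also of the T helper 1 list, stood at 543 and 355 CPM, against a median of 207.

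The share of clones with a given receptor segment was described and not tested. TRBV15 was carried by 11 of 40 large clones (27.5%) and by 43 of 404 small clones (10.6%), beside 6.01% of single cells. By library the shares were 22.2, 25.0, 28.6 and 33.3% in large clones, against 10.7, 6.58, 15 and 9.48% in small clones. TRAV13-4-DV7 with TRBV15 made up 4 of 40 large clones (10%), 4 of 404 small clones (0.99%) and 13 of 5978 single cells (0.217%). TRAV5D-4, an alpha segment known from NOD T cells that recognise an insulin B chain peptide, was carried by 5 of 40 large clones (12.5%), among them the nearly uniform clone 4.3, and by 17 of 404 small clones (4.21%). It was in 0 of 9, 1 of 12, 3 of 7 and 1 of 12 large clones of replicates 1 to 4, against 3.57, 3.95, 5.0 and 4.31% of small clones, and in 15.2% of the 66 clones of 5 to 9 cells. TRAV5-4, a segment of the same family, went the other way, with 2 of 40 large clones (5.0%) and 54 of 404 small clones (13.4%). What any of these receptors recognise was not tested. These segments were chosen after the shares were seen.

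The alpha junction of clones 1.1 and 2.6, printed above, recurred in all 4 libraries when its encoded residues were matched. It was found in 6 clonotypes with 100 cells, and 5 of these, with 99 cells, paired it with TRBV15. In replicate 3, clonotypes of 9 and 6 cells share both junctions and differ only by a further alpha chain in one of them. Over all chains, recurrence was close in the 2 classes for alpha chains: 6 of 42 alpha chains of large clones (14.3%) and 13.9% of the 439 of small clones were seen with the same segments and residues in another library, and for beta chains 4 of 40 (10%) and 7.43% of 404. Clones 1.1 and 2.6 had like helper shares of 64.6 and 66.7%, with Il21 at 202 and 465 CPM.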

How the data were processed

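The mRNA matrices hold raw counts, UMIs per gene and barcode with antibody counts below them, as deposited by the authors and written by Cell Ranger 4.0.0 per the file headers. The submitters' processing notes name mm10 and Seurat, with no role for either. The contig tables give deposited counts per receptor contig. Barcodes with exactly 1 TRB were used and no doublet caller was run. The members, lists and tests were chosen with earlier results of these data known.

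UMIs were summed by class and library, because large and small clones of a library share its sample. Receptor segment and mitochondrial genes, Cd8a, Cd8b1 and Foxp3 were not tested. edgeR 4.0.16 (R 4.3.3, limma 3.58.1) filtered low genes, normalised by TMM and fitted library and class, and DESeq2 1.42.0 was an alternative. Named were the 12 greatest changes each way with a mean of at least 20 CPM and 1 direction in all libraries, a fixed set, and called list members. For genes that vary between clones the 10 highest variance ratios at 50 CPM or more were named, and the 3 largest clones a library. Scores were log2(1 + list UMIs per 10000). Values of 1 gene and its antibody, and the alternative that used them, are not reported here. Python 3.11.15, numpy 2.4.6, scipy 1.17.1, pandas 2.3.3, scikit-learn 1.9.0 and matplotlib 3.10.9 were used. Within a library, residuals of the large and small sums correlated by 0.096, 0.093, -0.011 and 0.032 over 6633 genes, so the block follows from the shared sample and not from this check. Intervals cover counting error only, and depth is given as UMIs per sum. The edgeR test was also run on sums simulated from its own fitted model. Those sums hold no clones, so the run cannot check the test for genes that a few clones carry.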

Additional observations from a re-analysis of the deposited data

Results flagged for a closer look

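In 9 of 200 groups of 4 sums looked at, 1 library lay far from the other 3, and chance alone flags about 1 in 20 such groups. All values are CPM. In large clones, Nrgn was at 274.3 in replicate 2, against 83.5 to 114 in the other libraries, and Itgal at 326 in replicate 3, against 252 to 262. Maf in large clones was at 488 in replicate 3, against 322 to 340 in the others. Ccr8 in large clones was at 60.2 in replicate 1, against 86.3 to 91.7, and Rgs1 at 387 in replicate 1, against 509 to 532. Dgkz in large clones was at 288 in replicate 4, against 354 to 361. In small clones, Socs2 was at 14.9 in replicate 1, against 24.3 to 25.2. Shtn1 in small clones was at 37.3 in replicate 2, against 12.5 to 13.7, and Angptl2 at 124 in replicate 2, against 65.9 to 73.6.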

How the results depend on the processing

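The number of genes called, 432, became 222 with each large clone thinned to 10 cells, 266 without cycling cells (4137 genes tested), 657 without the 5% of cells with most UMIs and 128 in DESeq2. Among alternatives chosen after seeing the data it was 676 without cells with a Mki67, Top2a or Cdk1 UMI and 136 in cells with a CD11a count of 200 or more. With 1 library left out it lay between 242 and 354 (247 without replicate 1, 274 without 2, 354 without 3 and 242 without 4), and with no replicate block it was 227. The cause of these moves was not tested, except that fewer cells, genes or samples were used where some were left out. Without the block, the exact permutation test of large minus small clones gave p 0.0286 for log2 CD11a (0.811) and, in percentage points, for cycling (11.5), helper (30.3) and naive cells (-29.2), because unpaired samples allow more permutations than 4 pairs. With 1 library left out the differences lay between 0.744 and 0.876 for CD11a, 9.82 and 13.1 for cycling, 743 and 1080 for UMIs, 28.6 and 31.6 for helper and -32.1 and -24.7 for naive cells. In cells with a CD11a count of 200 or more the differences were 0.0452 for cycling, 17.5 for helper and -14.9 for naive cells. The T helper 1 difference of -1.04 turned to 0.200 when each large clone was thinned to 10 cells, 0.167 with large clones of 8 or more cells, 2.06 with small clones of 2 cells only and 0.417 with clones defined by TRB alone, and lay between -3.89 and 1.83 with 1 library left out (1.83 without replicate 2, 0.158 without replicate 4). Of the 94 named genes under 23 alternatives, 1760 values kept direction and call, 319 lost the call, 24 gained it and 22 turned in sign. Those that turned were uncalled genes with small differences. Without cycling cells they were Tbx21 (0.187), Tcf7 (0.146), Slamf6 (0.313), Itgal (0.385), Izumo1r (0.522) and Nkg7 (-0.00106). Without the 5% of cells with most UMIs they were Tcf7 (0.0539), Slamf6 (0.00802), Itgal (0.151) and Izumo1r (0.106), and without cells with a Mki67, Top2a or Cdk1 UMI Itgal (0.0531), Izumo1r (0.129) and Nkg7 (-0.0308). Itgal was also at 0.0262 and 0.0119 with large clones of 15 and of 8 or more cells, 0.000415 without clones with Foxp3-positive mates and between -0.042 and 0.00372 with 1 library left out (0.00372 without replicate 2). Izumo1r was at 0.0648 with clones thinned to 10 cells, 0.0132 with clones of 8 or more, 0.0409 without clones with Foxp3-positive mates and between -0.0789 and 0.117 with 1 library left out (0.117 without replicate 2), and Nkg7 between -0.112 (without replicate 3) and 0.308. In the cells with high CD11a, Il7r differed by -2.04 with an adjusted p of 0.303, and with large clones of 15 or more cells Tigit differed by 0.822 with an adjusted p of 0.0601. The 4 samples, and 10 to 65 cells a clone, limit what could be detected.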

Other observations

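Ranked by the share of the per-cell variance that lies between large clones of a library, which was looked at after the gene results, Cd5 came first at 30.6% (24.4 to 39.8% over libraries, and 33.9% between small clones), against a median of 0.765% and a 99th percentile of 8.41% over the 3507 genes. CD5 is an inhibitor of T cell receptor signalling whose level is known to follow the strength of self-recognition. Cd5 lay between 44.6 CPM in clone 1.7 and 1293 CPM in clone 2.6, with 1209 in clone 3.4 and 1149 in clone 4.1. Clones 1.1 and 2.6, which encode the same alpha junction, were at 313 and 1293 CPM. Klf2 followed at 21.1%, and at 3.24% without the clones that were mostly naive, then Ikzf2 at 19.7% and Cd6, a receptor related to CD5, at 19.4%. Gm2682 came next at 19.1%, and at 2.02% without the mostly naive clones, then Pkp3 at 18.5%. No test was made of this ranking.

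Without cycling cells, some helper and inhibitory genes that were called weakly or not at all differed more. Il21 was higher in large clones by 2.17 (adjusted p 1.11e-10), Lag3 by 1.51 (adjusted p 3.43e-10), Pdcd1 by 1.28, Cxcr5 by 1.34 (adjusted p 0.00192) and Nt5e, which encodes the ectoenzyme CD73, by 0.84 (adjusted p 0.00936). This setting tested 4137 genes and left out most cells of both classes, since 72.9% of large-clone and 61.4% of small-clone cells counted as cycling. Of the small-clone cells that remained, 77.7, 66.2, 59.3 and 57.1% were in the naive and recirculating state in replicates 1 to 4. With all cells these shares were 51.4, 45.9, 47.1 and 44.8%. In large clones they were 10.7 to 33.3% without cycling cells and 8.44 to 25.3% with them. The part of this changed make-up, or of depth, in the larger differences was not tested.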
